A study of Caenorhabditis elegans with 2 samples.

Results

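Genes for RNA-binding proteins that the mother supplies to the embryo were examined for peaks of the Caenorhabditis elegans protein B0019.2. The 9 genes were mex-1, mex-3, mex-5, mex-6, pos-1, pie-1, oma-1, oma-2 and spn-4, taken by name from the Ensembl annotation, out of 19973 protein-coding genes on the nuclear chromosomes. The values came from chromatin immunoprecipitation sequencing (ChIP-seq), an assay that finds the stretches of genome at which a protein was held. The only group was whole young adult worms of strain RW12288, aged 63.5 h and synchronised by starving L1 larvae after bleaching, with 2 biological replicates. In all of them the B0019.2 gene carried a CRISPR-made insertion that fused its product to TY1, EGFP and 3xFLAG tags, and chromatin was precipitated through the GFP part. Untagged or input libraries were not analysed here, so a peak is called from the authors' lists alone. Since whole animals were used, a site held in few cells and a site held weakly in many cannot be told apart, and the tissue of a peak is not known.

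Oocytes store messenger RNAs that stay silent until the embryo needs them, and RNA-binding proteins decide where and when each is translated. Of the genes here, mex-1, mex-5, mex-6, pos-1, pie-1, oma-1 and oma-2 encode proteins with paired CCCH zinc fingers, mex-3 encodes a KH-domain protein and spn-4 a protein with an RNA recognition motif. OMA-1 and OMA-2 act redundantly in oocyte maturation. MEX-5 and MEX-6 act redundantly at the anterior of the zygote, and MEX-1, POS-1 and PIE-1 gather in the posterior germline lineage.

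The sequence under the peaks is shown first because a short word recurs in it. Each line gives the summit of a gene's strongest peak with 50 bp to either side, read 5′ to 3′ on the strand of the gene (assembly ce11, sequence from the RefSeq copy of WBcel235). Capitals mark the word ACCGTA and the word GGCGC, either as written or as the reverse complement GCGCC.
mex-1 (chrII:11968422-11968522, plus strand): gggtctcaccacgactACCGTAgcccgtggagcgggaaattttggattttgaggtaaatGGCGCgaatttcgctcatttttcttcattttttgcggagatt
mex-5 (chrIV:13353385-13353485, plus strand): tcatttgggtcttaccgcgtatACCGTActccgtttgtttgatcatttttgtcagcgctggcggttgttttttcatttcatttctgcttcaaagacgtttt
mex-6 (chrII:9523660-9523760, plus strand): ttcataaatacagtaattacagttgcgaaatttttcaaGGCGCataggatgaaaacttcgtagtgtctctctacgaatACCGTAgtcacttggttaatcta
pie-1 (chrIII:12426685-12426785, plus strand): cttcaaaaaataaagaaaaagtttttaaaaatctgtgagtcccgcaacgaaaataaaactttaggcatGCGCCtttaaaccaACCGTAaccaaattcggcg
oma-1 (chrIV:8888683-8888783, plus strand): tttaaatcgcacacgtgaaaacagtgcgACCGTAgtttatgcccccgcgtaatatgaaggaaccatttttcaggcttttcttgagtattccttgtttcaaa
oma-2 (chrV:8028995-8029095, plus strand): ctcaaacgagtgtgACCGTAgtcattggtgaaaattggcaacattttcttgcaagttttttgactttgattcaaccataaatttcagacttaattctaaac
pos-1 (chrV:8413766-8413866, plus strand): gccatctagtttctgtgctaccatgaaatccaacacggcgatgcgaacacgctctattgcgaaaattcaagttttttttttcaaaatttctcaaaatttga
spn-4 (chrV:6785006-6785106, minus strand): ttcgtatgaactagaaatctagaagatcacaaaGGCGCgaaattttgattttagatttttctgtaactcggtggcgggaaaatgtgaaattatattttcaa

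The word ACCGTA was present, on either strand, within 50 bp of the strongest summit of 7 of the 9 genes. These were mex-1, mex-3, mex-5, mex-6, pie-1, oma-1 and oma-2, and pos-1 and spn-4 had no match in this window. All 7 matches were on the strand of the gene, and their centres lay 19.5 to 34.5 bp from the summit. Those of mex-6 and pie-1 lay after the summit and the others before it. The word was picked after these sequences, written on the strand of the gene, had been read. Its count, strand and position among the 9 genes are therefore descriptions and carry no test. Among the 888 main-list peaks that belong to none of these genes, 118 (13.3%) held the word in the same window. The share was 2.93% in 1776 windows centred 300 bp to either side of those peaks, 3.49% at 12431 candidate summits that lay near protein-coding gene starts but not in the main list, and 2.98% in windows centred 250 bp upstream of all 19973 protein-coding gene starts. Searched over the whole promoter window instead, 1000 bp before to 200 bp after the gene start, the word was found in 7 of the 9 genes and in 28.6% of protein-coding genes. Over the 538 other main-list peaks near a protein-coding gene start the share was 17.1%, and 56 of 100 matches there were on the strand of the nearest gene. Ordered by signal value, the first 222 of the 888 other peaks held the word in 23.0% of cases, and the next 3 sets of 222 in 10.8%, 9.91% and 9.46%.

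**Figure D1:**
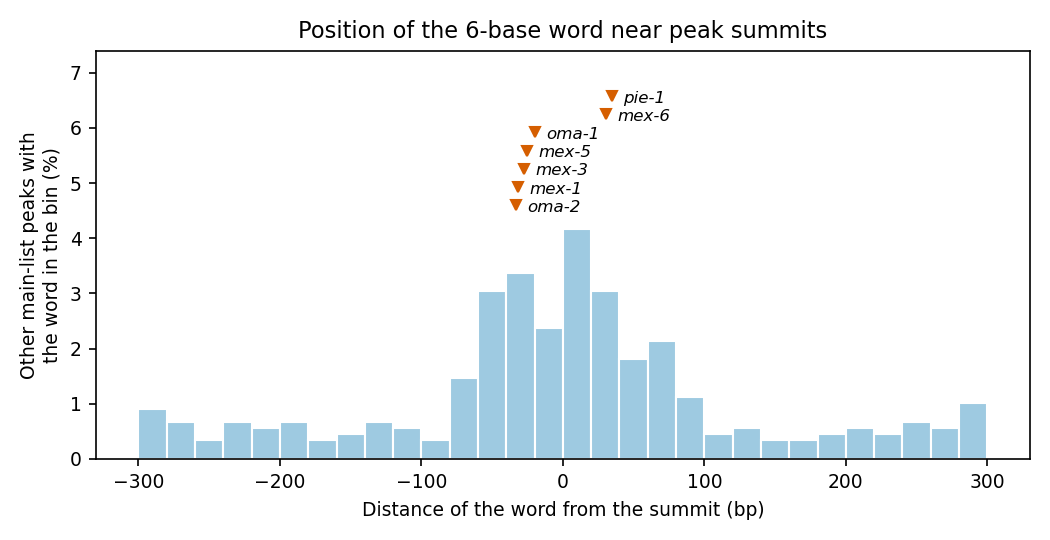
Share of the 888 other main-list peaks with the word ACCGTA in each 20 bp bin of distance from the summit (bars, percent, genome orientation), with the position of the word at the 7 genes (triangles, placed vertically only for legibility, in the orientation of the gene). The share was 4.17% in the bin that starts at the summit and 0.901% in the bin that starts 300 bp before it, and the 7 genes' matches lie within 34.5 bp of their summits.

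The bases around the word were compared next. T came before it in 4 of 7 matches at these genes and in 58.6% of 133 matches at other peaks. Of the 8-base words shared by several of the 9 windows, some that contain a marked word were picked for description after their values were seen. ACCGTAGT was found at mex-6, oma-1 and oma-2, and at 3.49% of other peaks against 0.282% of their flanks. The word GTACGGTA, or its reverse complement TACCGTAC, was found at mex-3 and mex-5, and at 3.49% of other peaks against 0.169% of flanks. The word shared by most of the 9 genes, AAAATTTC in 4 of them, was found at 3.27% of other peaks and 4.79% of flanks.

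The word GGCGC, also picked after the sequences were read, lay within 50 bp of the summit of mex-1, mex-3, mex-6, pie-1 and spn-4, that is 5 of 9. It was found at 33.4% of other main-list peaks, 4.90% of their flanks and 8.54% of the same candidate summits. A longer form, GGCGCGAA, was found at mex-1 and spn-4, at 2.82% of other peaks and at 0 of 1776 flanks. A further 8 motifs were searched. TTTCCCGC, a consensus of E2F factors, matched mex-1 and spn-4 and 2.59% of other peaks. The E-box CACGTG matched oma-1 only and 2.70% of other peaks. GAGAGA matched mex-3 and mex-6 (11.6% of other peaks) and TTTCAG matched oma-1 and oma-2 (7.66%). TTTTTT matched mex-1, mex-3, mex-5, pos-1, pie-1 and oma-2 (26.2% of other peaks and 36.8% of flanks). TATAAA, CTGCGTCT and CCGCCC matched none of the 9 genes, and 5.41%, 3.94% and 5.41% of other peaks. Motifs were searched on both strands, and no match says only that these letters were not in the window. The windows of the 9 genes were poorer in G and C than main-list peaks in general, with a median of 36.6% and a range of 32.7% to 46.5% against a median of 47.5% over all 900.

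All 9 genes had a peak of the main list, which holds 900 peaks that the authors thresholded from both libraries together. For 8 of 9 a summit lay in the promoter window, which began 1000 bp before the gene start and ended 200 bp after it, against 3.84% of all protein-coding genes. These 8 were also the only ones with a candidate in that window in the ranked list of both libraries, and among the 10361 protein-coding genes with such a candidate 7.39% had a main-list summit. With the gene body added, 9 of 9 had a summit against 4.8% of protein-coding genes. The 9 genes were named with earlier results of these data known, and no test of the list was made. The strongest summit of the 9 had a median signal value of 123, against 103 over the 959 protein-coding genes with a main-list summit in the window or body. The signal value is the authors' own measure of a peak, with no stated scale, and is read here only within a list. The genes mex-1, pos-1 and pie-1 had 2 main-list summits each, where 7.30% of the 959 genes had more than 1. The 2 peaks of pie-1 overlapped and are not counted as separate sites here. The second summit of mex-1 was closer to the start of another gene, W03C9.5. That of pos-1 was in neither replicate's thresholded list.

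**Figure D2:**
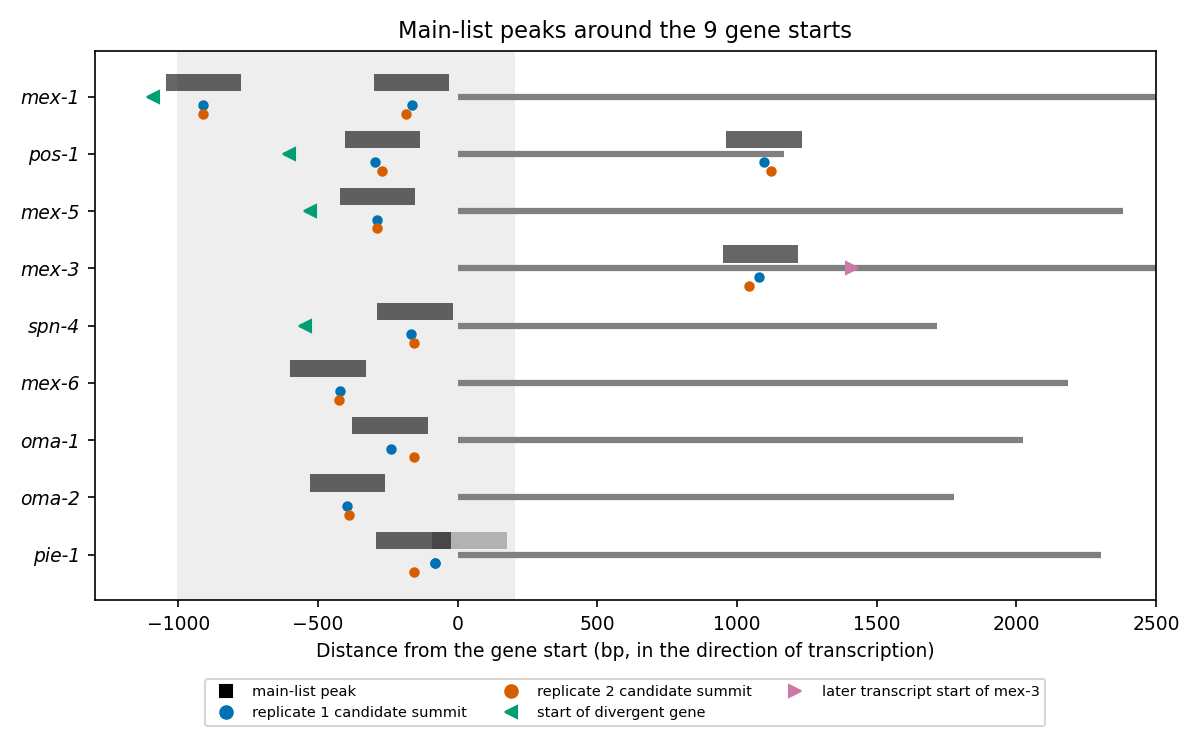
Position of the main-list peaks (boxes, the faint box being the weak second peak of pie-1), with the matched candidate summits of replicates 1 and 2 (points), in bp from each gene start. Shading marks the promoter window, grey lines the gene bodies (cut at 2500 bp), and triangles the starts of divergent genes and a later transcript start of mex-3. Strongest summits lie 153 to 464 bp upstream for 8 genes and 1083 bp downstream for mex-3.

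Distances from the gene start had a median near that of other genes. For mex-1, mex-5, mex-6, pos-1, pie-1, oma-1, oma-2 and spn-4 the strongest lay upstream, at a median of 256.5 bp, against 255 bp over the 766 protein-coding genes that had one in this window, of which 95.4% had it upstream. The nearest was that of spn-4, 153 bp upstream, and the farthest that of mex-6, 464 bp upstream. Each of the 9 peaks was 270 bp wide, as were the second main-list peaks of mex-1, pos-1 and pie-1. The widths of other main-list peaks were not compared.

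**Figure D3:**
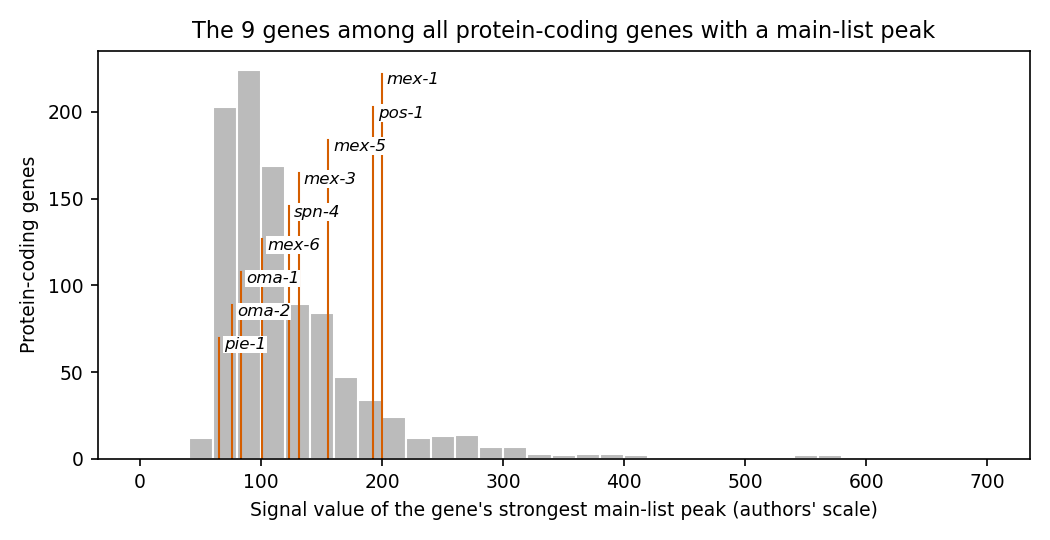
Signal value of the strongest main-list peak in the promoter window or body of 959 protein-coding genes (grey bars, genes per 20 units of the authors' scale), with the 9 genes marked by lines whose height has no meaning. They span 65.2 (pie-1) to 199.8 (mex-1).

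Of the genes for posterior proteins, mex-1 and pos-1 had the strongest peaks of the 9 by main-list signal value and pie-1 the weakest. The gene mex-1 is WBGene00003228, pos-1 is WBGene00004078 and pie-1 is WBGene00004027. MEX-1 restricts germline determinants to the posterior cells of the embryo. Its peak spanned 11968337 to 11968606 of chromosome II, with a signal value of 199.8 (rank 81 of 900) and a summit 165 bp upstream. Its signal value was 81.2 in replicate 1 (rank 158 of 524) and 116 in replicate 2 (rank 49 of 496), with summits 164 and 186 bp upstream. A second main-list summit lay 910 bp upstream of mex-1 (signal value 87.5, rank 540), and was listed in replicate 1 (rank 496) but not in replicate 2. That summit was closer to the divergent gene W03C9.5, 183 bp upstream of its start, and also lay in the window of rab-7, a GTPase of late endosomes.

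POS-1 is needed for the posterior cell fates and regulates the translation of maternal RNAs. The peak of pos-1 spanned 8413681 to 8413950 of chromosome V, with a signal value of 192 (rank 92) and a summit 270 bp upstream. Its signal value was 100.7 in replicate 1 (rank 92) and 86.3 in replicate 2 (rank 104), with summits 295 and 270 bp upstream. The gene had a second main-list summit in its 3′ UTR, 1096 bp downstream of the start, with a signal value of 83.5 (rank 590). The second summit was in neither replicate's thresholded list nor in a further list that the authors made from both libraries. Candidates at the same place ranked 630 of 45502 in replicate 1 and 1636 of 38525 in replicate 2. All ranks of candidates outside a thresholded list are counted in these longer lists. Each candidate has a −log10 global irreproducible discovery rate (IDR), which scores how well ranks agree between inputs. At the second summit of pos-1 it was 0.0627 in replicate 1 and 0.443 in replicate 2, under the threshold of 2.

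PIE-1 represses transcription in the germline blastomeres. The main-list peak of pie-1 spanned 12426600 to 12426869 of chromosome III, had a signal value of 65.2 and ranked 841 of 900, with a summit 158 bp upstream. It was in neither replicate's thresholded list. Candidates at the same place had signal values of 38.5 (rank 1081) in replicate 1 and 31.7 (rank 1631) in replicate 2. Their −log10 global IDR was 0.475 in replicate 1 and 0.560 in replicate 2. Their summits lay 81 and 155 bp upstream, a gap of 74 bp. A second peak overlapped the first and had its summit in the coding exon 41 bp downstream of the gene start. Its signal value was 7.02, rank 890 of 900 in the main list and 52450 of 55591 in the ranked list of both libraries. Its −log10 global IDR was 2.21, the same to 2 decimals as that of the first peak, and it overlapped the same candidate of replicate 1. The 2 peaks of pie-1 were therefore not independent, and the weaker one is not counted as a separate site here.

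The paralogues mex-5 and mex-6 each had 1 peak, that of mex-5 the stronger by signal value. The genes are WBGene00003230 and WBGene00003231. MEX-5 and MEX-6 exclude germline proteins from the anterior of the zygote. The peak of mex-5 spanned 13353300 to 13353569 of chromosome IV, with a signal value of 155 (rank 149) and a summit 288 bp upstream. Its signal value was 88.5 in replicate 1 (rank 129) and 66.7 in replicate 2 (rank 200), with summits 289 and 288 bp upstream. This summit was closer to the start of the divergent gene rec-8, which encodes a meiotic cohesin, at 242 bp. The peak of mex-6 spanned 9523575 to 9523844 of chromosome II, with a signal value of 100.8 (rank 402) and a summit 464 bp upstream. It was in neither replicate's thresholded list. Its candidate in replicate 1 had a signal value of 52.7 (rank 485) and a −log10 global IDR of 1.99, just outside the threshold of 2, and that in replicate 2 a signal value of 47.5 (rank 521) and an IDR value of 1.39. The summits of these candidates lay 423 and 424 bp upstream, closer to the gene than the main-list summit.

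The paralogues oma-1 and oma-2 (WBGene00003864 and WBGene00003865) had peaks in the lower part of the main list. The peak of oma-1 spanned 8888598 to 8888867 of chromosome IV, with a signal value of 83.3 (rank 593) and a summit 243 bp upstream. It was listed in replicate 1, with a signal value of 54.3 (rank 387). It was not listed in replicate 2, where its candidate had a signal value of 34.0 (rank 1263) and a −log10 global IDR of 0.917. The summits in replicates 1 and 2 lay 239 and 156 bp upstream, a gap of 83 bp. The peak of oma-2 spanned 8028910 to 8029179 of chromosome V, with a signal value of 75.9 (rank 711) and a summit 394 bp upstream. It was in neither replicate's list, and its candidates had signal values of 35.5 (rank 1518) in replicate 1 and 33.4 (rank 1342) in replicate 2. Their −log10 global IDR was 0.0738 in replicate 1 and 0.847 in replicate 2. The main-list peak of oma-2 had a −log10 global IDR of 2.16, the lowest among the strongest peaks of the 9 genes. Neither gene shared its summit with the promoter window of another gene.

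SPN-4 binds maternal RNAs and is needed for spindle orientation in the early embryo. Its gene (WBGene00004984) is on the minus strand of chromosome V, with a peak at 6784921 to 6785190, a signal value of 123 (rank 254) and a summit 153 bp upstream. Its signal value was 59.9 in replicate 1 (rank 319) and 60.8 in replicate 2 (rank 252). The summit also lay 395 bp upstream of the divergent gene spe-39, which was farther away.

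MEX-3 represses the translation of pal-1, a homeodomain gene, in the anterior of the embryo. The gene mex-3 (WBGene00003229), on chromosome I at 127285 to 134270, was the only one of the 9 without a main-list summit in its promoter window. Its peak at 128233 to 128502 lay in an intron, 1083 bp downstream of the gene start, and had a signal value of 131 (rank 225). It was listed in both replicates, with a signal value of 69.2 in replicate 1 (rank 223) and 67.2 in replicate 2 (rank 198), and with summits 1079 and 1044 bp downstream. The gene has 5 annotated transcripts with different starts, and the summit lay 329 bp before the point where transcript F53G12.5a.1 begins. With the window placed at every annotated transcript start, 9 of 9 genes had a main-list summit, against 4.09% of protein-coding genes. Measured from the nearest transcript start, the strongest summits of all 9 genes lay 153 to 464 bp upstream.

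The replicates gave much the same order but did not both list every gene. Thresholded summits in the window or body were found for 6 of 9 genes in replicate 1 (3.05% of protein-coding genes) and for 5 of 9 in replicate 2 (2.91%). Mex-1, mex-3, mex-5, pos-1 and spn-4 were in both, 5 of 9 against 2.12% of protein-coding genes. Of the 900 main-list peaks, 37.3% were in both replicate lists. The peaks of mex-6, pie-1 and oma-2 were in neither replicate's list, 3 of 9, where 36.6% of the 900 main-list peaks were in neither. All 9 strongest peaks had a matching candidate in both ranked lists. Those lists hold 45502 and 38525 candidates, and the share of all main-list peaks with such a match was not computed. For mex-6, pie-1 and oma-2 the candidates had −log10 global IDR under the threshold of 2 in both replicates. In replicate 1 the order by signal value was pos-1, mex-5, mex-1, mex-3, spn-4, oma-1, mex-6, pie-1 and oma-2, with values from 100.7 to 35.5. In replicate 2 it was mex-1, pos-1, mex-3, mex-5, spn-4, mex-6, oma-1, oma-2 and pie-1, with values from 116 to 31.7. The first 4 places went to the same genes in both replicates, and spn-4 was next in each. The same held in the main list, which was made from both libraries and is not a separate observation. Neighbours within those first places changed order between replicates, as did oma-1 and mex-6, and pie-1 and oma-2, so they were not separated by the replicates.

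**Figure D4:**
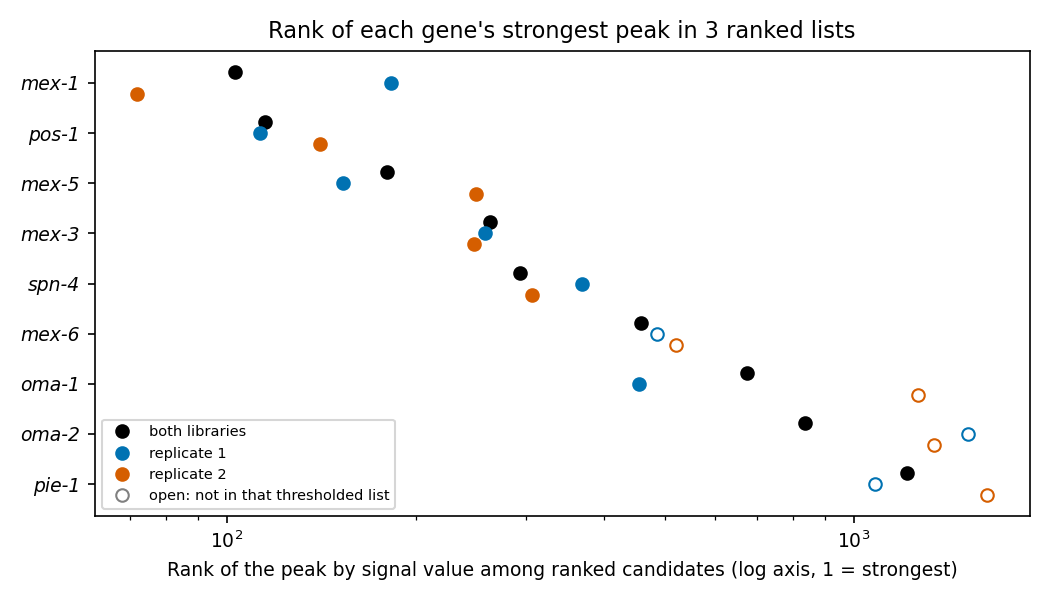
Rank by signal value of each gene's strongest main-list peak among all ranked candidates of both libraries (black), and of the matching candidate in replicate 1 (blue) and replicate 2 (orange), on a log axis. Open points are not in the thresholded list of that library. Ranks run from 72 to 1631, and the open points belong to mex-6, oma-1, oma-2 and pie-1.

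A further thresholded list that the authors made from both libraries, of 866 peaks, held a summit in the window or body of 7 of 9 genes, against 4.72% of protein-coding genes. It lacked the peaks of pie-1 and oma-2. Divergent genes shared the strongest summit of mex-1, mex-5, pos-1 and spn-4, with W03C9.5, rec-8, vha-18 and spe-39. The gene vha-18 encodes a subunit of the vacuolar proton pump, and its start was 334 bp from the summit it shared with pos-1. With each summit given only to the nearest gene start, 7 of 9 genes had a promoter summit, against 2.23% of protein-coding genes. The exceptions were mex-5 and mex-3.

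Genes that act with or on these proteins were looked up in the same way. Of 28 annotated regulators and partners, 7 had a main-list summit in the promoter window, against the 3.84% above. They were larp-1 (signal value 204), plk-1 (154), puf-3 (149), puf-11 (141), ifet-1 (137), gld-2 (113) and car-1 (91.5). The peaks of gld-2 and car-1 were listed in replicate 1 only, and the other 5 in both replicates. LARP-1 and the PUF proteins PUF-3 and PUF-11 bind RNA, PLK-1 is a Polo kinase that binds MEX-5, GLD-2 is a cytoplasmic poly(A) polymerase, and IFET-1 and CAR-1 are parts of germline RNA granules. Only puf-3 and gld-2 were the nearest gene start to their summit. The word ACCGTA lay within 50 bp of the summits of 2 of the 7, gld-2 and ifet-1. Of other main-list peaks near a protein-coding gene start, 17.1% held it. The kinase gene mbk-2, whose product marks OMA-1 for destruction, had no main-list summit, and its best candidate in the window or body ranked 1019 of 55591. The germline regulator gld-1 and lin-41, a regulator of oocyte growth, had best candidates at ranks 1836 and 8709.

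Of 9 genes whose RNAs are described as targets of these proteins, 1 had a main-list promoter summit, where 3.84% of protein-coding genes did. It was rme-2, the yolk receptor gene (signal value 137, rank 210, 82 bp upstream, listed in both replicates). The targets glp-1, nos-2, zif-1, pal-1, neg-1, mom-2, apx-1 and skn-1 had none. The best candidates of mom-2, a Wnt ligand gene, and skn-1, a transcription factor gene, ranked 1312 and 1835 of 55591, and that of neg-1 ranked 23156. None of the 5 other annotated CCCH finger genes that were looked up (moe-3, ccch-1, ccch-2, ccch-5 and dct-13) had a main-list summit in the window or body, where 4.8% of protein-coding genes did, so a count of 0 is near that share. A summit says nothing of how much RNA a gene makes, and no expression data were used.

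By rank in the main list and both replicate lists, the genes most like mex-1 among 361 protein-coding genes with a summit in all 3 were W03C9.5, isw-1 and R05H5.3. W03C9.5 shares the summit. The peak of isw-1, a chromatin remodeller, ranked 91 in the main list, 157 in replicate 1 and 56 in replicate 2. That of R05H5.3 ranked 89, 164 and 44. The measure was the sum of absolute differences in percentile rank over 3 lists, 2.71 for isw-1 and 3.04 for R05H5.3.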

How the data were processed

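Chromatin immunoprecipitation was done with 2 biological replicates of 1 group, sheared by sonication to 200 to 800 bp, per the labels. The authors deposited, on assembly ce11, thresholded and ranked peak lists for each library and for both together. Their readme files list 1 more input to the thresholded lists, without describing it. The aligner and the peak caller were not given in the sources used here. Depth is unknown, as the lists hold no counts. The deposited signal value of a peak has no stated scale. The values of column 9 served only in an alternative ranking, and the deposited score (column 5) was not used to rank. The authors' ranked lists also give −log10 global IDR. Every peak of the main list and of both replicate lists was found in its ranked list at a value of at least 2. The deposited summit offset gave the summit. For both libraries the longer ranked list was used, since it met this for every main-list peak. No use was made of 16 columns that split ranked values by input, because the labels do not say which sample each is.

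Genes came from Ensembl release 115 (WBcel235, the coordinates of ce11), and sequence from the RefSeq copy of that assembly. Peaks of different lists were matched at an overlap of at least 50% of either peak. The 9 genes, the 3 lists of related genes and the rules were chosen with earlier results of these data known, and ACCGTA and GGCGC after the sequences were read. Named genes were the 9, genes sharing their summits, up to 8 listed genes per list with a main-list promoter summit, and the 3 genes most like the strongest. Genes named from the lists for their candidates were chosen after their values were seen. Of the listed genes, ntl-1 and gla-1 were not matched by symbol. No test was made. Gene assignment and word search were tested on planted positions. Python 3.11.15, numpy 2.4.6, pandas 2.3.3 and matplotlib 3.10.9 were used.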

Additional observations from a re-analysis of the deposited data

How the results depend on the processing

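The count of genes with a main-list summit in the promoter window (8) was 5 in the upper 450 peaks by signal value. It was 4 to 5 with 1 replicate's list left out. With the gene body added (9) the count was 5 to 6 with 1 replicate left out, against 2.91% and 3.05% of protein-coding genes. The replicate lists (524 and 496 peaks) are shorter than the main list (900). For the promoter window, shares of all protein-coding genes were not computed in the upper peaks, in 1 replicate or in the other deposited list. The windows of 500 and 100 bp and of 2000 and 500 bp left both counts as they were. Shares of all protein-coding genes in these windows were not computed. In an alternative added after seeing the data, 810 main-list peaks were left without those of lowest signal value. There 7 genes had a promoter summit and pie-1 did not, and the share of all protein-coding genes was not computed. The median percentile rank of the 9 genes in the main list (28.2) was 64.6 when peaks were ranked by column 9 instead of the signal value. The cause was not tested. By column 9, the strongest peaks of mex-1 (1.08), pos-1 (1.13) and mex-5 (1.23) were below that of mex-6 (1.37). That of pie-1 (0.696) was the lowest of the 9. Over all 9 genes, with mex-3 counted as 1083 bp downstream, the median distance was 243 bp upstream, and 270 bp from the nearest transcript start, which moved only mex-3. ACCGTA lay within 25 bp of the summit in 1 gene (oma-1, with 7.32% of other peaks) against 7 within 50 bp, and in 7 over the whole peak (20.9% of other peaks). GGCGC was in 8 whole peaks against 5 windows, where 33.4% of other peaks held it within 50 bp. Its share in other whole peaks was not computed. Of the regulators, 4 had a summit in the window of 500 and 100 bp. When summits went to the nearest gene start only, 2 did, against 2.23% of protein-coding genes. Of the targets, 2 had a promoter summit in the other deposited list, and 1 to 2 with 1 replicate left out, the added gene being mom-2. No paired analysis was possible because there is 1 group and no comparison between groups. With 2 libraries and no counts, neither depth nor error per peak could be given.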
